A study of Mus musculus with 24 samples.

Results

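Matrix metalloproteinases are zinc-dependent enzymes that cut collagen, elastin and other proteins of the extracellular matrix, and this report follows the mRNA of 10 of them in cultured mouse lung fibroblasts. The members, Mmp2, Mmp3, Mmp8, Mmp9, Mmp10, Mmp12, Mmp13, Mmp14, Mmp19 and Mmp23, were chosen by name from the 55291 gene names counted, and all 10 were among the 16258 genes with enough reads to be tested. The cells came from lungs of C57BL/6 mice aged 4 to 8 weeks, either wild type (WT) or carrying a knockout of TLR4 (TLR4-/-) on the same background, and the fibroblasts of each group were prepared from 3 to 4 lungs combined. At passage 3 to 6 they were kept overnight in low-serum medium and then treated for 24 h with phosphate-buffered saline (PBS), with 1 μg/ml recombinant mouse cold-inducible RNA-binding protein (rmCIRP), with 2 ng/ml recombinant mouse transforming growth factor β1 (rmTGF-β1) or with both. Each of the 8 combinations of genotype and treatment has 3 total RNA libraries, 24 in all. The question followed here is what rmCIRP and rmTGF-β1 did to these genes alone and together, and whether that differed between the genotypes.

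Metalloproteinases are made as inactive proenzymes and become active when the propeptide is removed, by plasmin, by furin-like convertases or by one another. In the matrix they are held in check by the tissue inhibitors of metalloproteinases. In the lung they take part in repair, in inflammation and in the remodelling that accompanies fibrosis, with different members cutting different matrix proteins. Extracellular CIRP is a danger signal that binds TLR4, a receptor that switches on inflammatory genes, while TGF-β1 is the main growth factor known to drive fibroblasts to lay down matrix.

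The reads assigned to genes ranged from 29853346 to 39664606 per library, so counting error was small for every member. Levels are given as normalized counts, which are reads divided by a size factor for the library. Differences are log2 fold changes with their standard error (SE), and a gene was called changed at an adjusted p under 0.1 in the quasi-likelihood test of edgeR, adjusted by the Benjamini-Hochberg method across the 16258 genes. The mRNA of Tlr4 itself was not lower in the libraries labelled TLR4-/-. With PBS its normalized count was 903 ± 20.2 (SD, n = 3) there and 759 ± 41.9 (SD, n = 3) in WT cells. It was called higher in the libraries labelled TLR4-/- (log2 difference 0.25, SE 0.06, edgeR adjusted p = 0.0012). A count over the whole gene does not show which of its exons were read. These libraries are called labelled TLR4-/- throughout. The summed count of 15 macrophage marker genes lay between 83125 and 102850 in the WT libraries and between 343787 and 444556 in the libraries labelled TLR4-/-. The summed count of 9 fibroblast markers lay between 392079 and 568944, and all 9 were present in every condition. Most of that sum was collagen mRNA, with Col1a1 at 242156 ± 5246 and Col1a2 at 144411 ± 4763 (SD, n = 3) in WT with PBS. It therefore says little about the other markers, which are compared between the genotypes below. The third library labelled TLR4-/- with both treatments stood apart from its replicates: over all genes tested, the root mean square log2 difference was 0.457 from the first and 0.401 from the second, the highest values among 24 replicate pairs, whose median was 0.307. For the members in which it stood out, comparisons among the libraries labelled TLR4-/- are given with and without it. It also enters the SE of every WT comparison, because the spread of each gene was estimated over all 24 libraries. No WT result is given with this library alone left out. The labels do not say whether replicate libraries came from separate cultures, so p-values measure the spread between libraries, which may be technical. Each SE uses a single estimate of spread for the gene over all 8 conditions, and not only that of the libraries compared. For Mmp10 the SD was 60.8% of the mean in the libraries labelled TLR4-/- with both treatments and 7.17% in WT with rmCIRP.

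Of the 10 genes, 5 lie close together on chromosome 9 in the annotation used (GENCODE M21), in the order Mmp13, Mmp12, Mmp3, Mmp10 and Mmp8, with Mmp1b and Mmp1a between them. The 100 bases before the annotated start are shown for the 3 genes with the largest response to rmCIRP, Mmp3, Mmp10 and Mmp13, and for Mmp8 and Mmp14, whose responses were smaller or opposite. They are from RefSeq (GRCm38.p6, plus strand, 5′ to 3′). Capitals mark matches to the AP-1 element TGANTCA and to the TATA box letters TATAAA.

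Mmp3: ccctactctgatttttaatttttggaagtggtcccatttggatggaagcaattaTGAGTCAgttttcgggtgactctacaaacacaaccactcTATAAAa
Mmp10: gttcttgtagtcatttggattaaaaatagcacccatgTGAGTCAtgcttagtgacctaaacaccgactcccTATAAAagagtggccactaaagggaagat
Mmp13: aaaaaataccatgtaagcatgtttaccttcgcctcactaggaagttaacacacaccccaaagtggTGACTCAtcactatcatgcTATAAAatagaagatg
Mmp8: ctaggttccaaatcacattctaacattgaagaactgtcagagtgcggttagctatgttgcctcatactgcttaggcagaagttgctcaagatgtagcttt
Mmp14: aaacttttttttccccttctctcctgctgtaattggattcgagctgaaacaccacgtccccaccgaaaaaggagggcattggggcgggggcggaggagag

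The sequences cover chr9:7445722-7445821 for Mmp3, chr9:7502242-7502341 for Mmp10, chr9:7272414-7272513 for Mmp13, chr9:7558329-7558428 for Mmp8 and chr14:54431498-54431597 for Mmp14. In Mmp3, Mmp10 and Mmp13 an AP-1 element stood upstream of the TATA letters. The element began 46, 63 and 35 bases before the start, and the TATA letters began 7, 29 and 16 bases before it. RefSeq windows of 300 bases (250 before the start and 50 from it) were at hand for 7 of the 10 genes. The same pair of motifs was found in the window of a second start of Mmp12, where the AP-1 element began 44 bases before the start and the TATA letters lay just after it. Neither motif was found for Mmp14 or Mmp23, and Mmp8 had only the TATA letters, read on the other strand across the start. None of the 7 held a match to the NF-kB motif searched. Both strands were searched and the motifs do not overlap. Over all 32851 windows of that length, 7.81% held an AP-1 element, 13.6% the TATA letters, 1.54% both and 4.51% an NF-kB match. A match is a description of the letters and not a measured site.

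In the WT cultures rmCIRP alone changed all 10 genes, raising 6 and lowering 4. The 6 that rose were the stromelysins Mmp3 and Mmp10, the collagenases Mmp13 and Mmp8, the gelatinase Mmp9 and the elastase Mmp12, while Mmp2, Mmp14, Mmp19 and Mmp23 fell. Over all genes tested in this comparison, 43.9% were called, 19.8% higher and 24.1% lower. The median log2 fold change was 0.65 over the 10 members and -0.02 over all genes tested. Of the 9 fibroblast markers, 2 were called higher and 6 lower in the same comparison. Their summed count was between 501029 and 543214 with PBS and between 400146 and 439040 with rmCIRP, without overlap, and its part in the results was not tested.

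The largest responses were those of collagenase 3, which cuts fibrillar collagen, and the stromelysins, which cut a broad range of other matrix proteins. The normalized count of Mmp13, collagenase 3, was 4604, 5482 and 4323 in the PBS libraries and 40177, 40211 and 45498 with rmCIRP. The change on the log2 scale was 3.12 (SE 0.24, edgeR adjusted p = 5e-10), an 8.70-fold rise. Mmp10, stromelysin 2, was counted at 5672, 6852 and 5762 with PBS and at 44651, 45739.7 and 50972 with rmCIRP, which is a log2 fold change of 2.95 (SE 0.29, edgeR adjusted p = 2.9e-08). For both genes the lowest rmCIRP library was many times higher than the highest PBS library. Mmp3, stromelysin 1, which can also activate other proenzymes, was counted at 5055, 7841 and 6276 with PBS and at 33151, 27579.9 and 39147 with rmCIRP. On the log2 scale it changed by 2.38 (SE 0.24, edgeR adjusted p = 5.5e-08), with more spread between replicates than the other members.

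The collagenase Mmp8 and the gelatinase Mmp9, both known from neutrophils, about doubled. Mmp8 was counted at 2883, 3733 and 3392 with PBS and at 6568, 6317 and 6571 with rmCIRP, which is a log2 fold change of 0.95 (SE 0.07, edgeR adjusted p = 3.4e-10). Mmp9, which cuts denatured collagen, was counted at 1295, 1692 and 1537 with PBS and at 3128, 3202 and 3309 with rmCIRP, which is a log2 fold change of 1.09 (SE 0.10, edgeR adjusted p = 7.9e-09). In both genes the groups did not overlap. Among 9 neutrophil markers, 3 had enough reads to be tested and 2 of these were called higher with rmCIRP, with a median log2 fold change of 1.04 over the 3. Camp rose from 12.02 ± 2.82 to 53.2 ± 15.3 (SD, n = 3) normalized counts, and S100a8 rose from 132 ± 13.5 (SD, n = 3) without to 273 ± 23.6 (SD, n = 3) under rmCIRP, while Mpo was not called. S100a9 was at 0 in these conditions, Ly6g, Elane, Ngp and Ltf were each at 3 counts or fewer per library, and Cxcr2 was at 0.666 ± 1.15 and 4.37 ± 3.00 (SD, n = 3). The summed count of the 9 was between 140.5 and 167 with PBS and between 311 and 364 with rmCIRP, and its part in the Mmp8 and Mmp9 results was not tested. Mmp12, the macrophage elastase, rose less, from 4167 ± 94.2 (SD, n = 3) to 5302 ± 356 (SD, n = 3), a log2 fold change of 0.34 (SE 0.07, edgeR adjusted p = 0.00048). Of the 15 macrophage markers, 5 were called higher and 10 lower with rmCIRP in the same cells, and their part in the result was not tested. In such bulk samples, fewer cells of a type and less RNA per cell cannot be told apart. In the annotation Mmp12 overlaps Mmp1b on the other strand, and the strand option of the authors' counting is not given in the sources used here.

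The members that fell changed little. Mmp14, the membrane-type enzyme that cuts collagen at the cell surface and activates proMmp2, was counted at 37371, 37812.5 and 38928 with PBS and at 29977, 28651 and 27075 with rmCIRP. On the log2 scale it changed by -0.42 (SE 0.08, edgeR adjusted p = 0.00026), and the groups did not overlap. Mmp19 fell by 0.37 on the log2 scale (SE 0.10, edgeR adjusted p = 0.0075) and Mmp23, a membrane-anchored member, fell by 0.26 (SE 0.06, edgeR adjusted p = 0.0019), again without overlap. Mmp2, the gelatinase that Mmp14 activates, was counted at 1901, 2325 and 2025 with PBS and at 1871, 1675 and 1907 with rmCIRP. These groups overlapped, and the log2 fold change was -0.20 (SE 0.08, edgeR adjusted p = 0.045). That call was lost without the second PBS library (-0.11, edgeR adjusted p = 0.32) and without the second rmCIRP library (-0.14, edgeR adjusted p = 0.23).

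**Figure D1:**
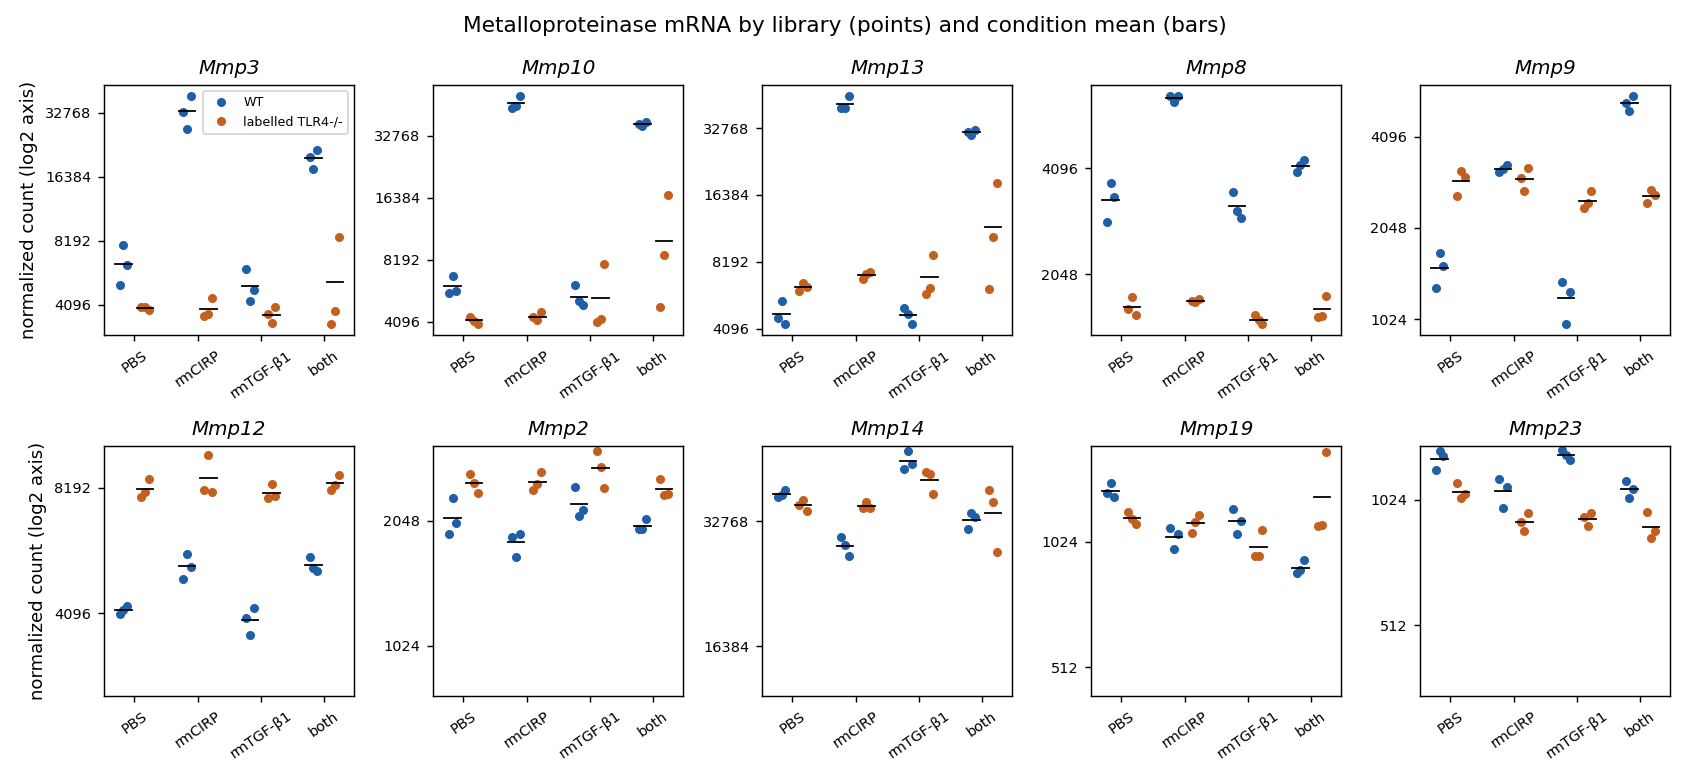
Normalized count (log2 axis, scaled separately for each gene) of the 10 metalloproteinase genes by treatment; points are libraries, 3 for each condition, in blue for WT and orange for labelled TLR4-/-, and bars are means. Mmp3, Mmp10 and Mmp13 were several times higher in the WT libraries with rmCIRP than in those with PBS, and Mmp9 was highest in the WT libraries with both treatments.

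Treatment with rmTGF-β1 alone left most of the family near its level with PBS. In WT cells 1 of the 10 genes was called higher, Mmp14, and 1 lower, Mmp9, where 5.77% of all genes tested were called higher and 6.65% lower. Mmp14 rose to 43854, 48345 and 45015, above every PBS library, a log2 fold change of 0.26 (SE 0.08, edgeR adjusted p = 0.044). That call was lost without the second rmTGF-β1 library (0.22, edgeR adjusted p = 0.20). Mmp9 was counted at 1355, 986 and 1259, of which the highest lay above the lowest PBS library. On the log2 scale it changed by -0.33 (SE 0.10, edgeR adjusted p = 0.042), and the call was lost without the second PBS library (edgeR adjusted p = 0.23), the third PBS library (0.12) or the second rmTGF-β1 library (0.25). Mmp19 had a log2 fold change of -0.24 (SE 0.10, edgeR adjusted p = 0.16) and Mmp3 one of -0.35 (SE 0.23, edgeR adjusted p = 0.41). The 3 PBS libraries serve in this comparison, in the one with rmCIRP and in the one with both treatments.

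With both treatments in WT cells, Mmp3, Mmp8, Mmp9, Mmp10, Mmp12 and Mmp13 were called higher against PBS, and Mmp14, Mmp19 and Mmp23 lower, where 53.4% of all genes tested were called, 24.4% higher and 29% lower. Against rmTGF-β1 alone, which is the effect of adding rmCIRP to rmTGF-β1, 6 were called higher and 4 lower, where 42.2% of all genes were called, 20.5% higher and 21.7% lower. The median log2 fold change of the members was 0.33 against PBS, with -0.03 over all genes, and 0.41 against rmTGF-β1, with -0.01 over all genes. The effect of adding rmTGF-β1 to rmCIRP was smaller and mixed: 2 members were called higher and 2 lower, where 10% of all genes were called higher and 10.5% lower. Among cell type markers, both treatments against PBS gave 3 higher of 3 neutrophil markers tested, 5 higher and 10 lower of 15 macrophage markers, and 1 higher and 5 lower of 9 fibroblast markers. The summed neutrophil markers were between 258 and 315 and the summed fibroblast markers between 453689 and 468524 with both, and their part in the results was not tested.

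Mmp9 was the member with its highest level under both treatments together. Its normalized count was 5284, 4984 and 5564 with both, above every library of any other condition. The log2 fold change was 1.80 (SE 0.10, edgeR adjusted p = 1.9e-12) against PBS, 2.13 (SE 0.10, edgeR adjusted p = 1.4e-13) against rmTGF-β1 and 0.71 (SE 0.09, edgeR adjusted p = 1.2e-05) against rmCIRP. Thus rmCIRP raised Mmp9 2.12-fold without rmTGF-β1 and 4.38-fold with it, while rmTGF-β1 alone gave 0.794 of the PBS level. The interaction, which is the log2 effect of rmCIRP with rmTGF-β1 minus that without it, was positive for Mmp9, with a 95% interval from 0.76 to 1.33. It stayed past the threshold when each of the 12 WT libraries was left out in turn, with values from 0.92 to 1.14.

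Mmp8 went the other way. With both treatments it was counted at 4002, 4186 and 4316, above every PBS library but below every rmCIRP library. The log2 fold change was 0.31 (SE 0.07, edgeR adjusted p = 0.00097) against PBS and -0.64 (SE 0.07, edgeR adjusted p = 1.1e-06) against rmCIRP. Adding rmCIRP raised it 1.94-fold without rmTGF-β1 and 1.30-fold with it, and the 95% interval of the interaction ran from -0.78 to -0.37. The call on that interaction (edgeR adjusted p = 0.038) was lost without any of 5 of the 12 libraries, with adjusted p between 0.10 and 0.13 in edgeR. These were the third PBS library (-0.59), the third rmCIRP library (-0.57), the first rmTGF-β1 library (-0.50) and the first and second libraries with both (-0.55 and -0.58).

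Mmp9 and Mmp8 were the members called for the interaction in WT cells, where 0.0369% of all genes tested were called higher and 0.0123% lower. For the other 8 members the adjusted p of the interaction was 0.966 or more in edgeR. Their intervals still differed in width: from -1.06 to 0.29 for Mmp3 and from -1.04 to 0.25 for Mmp13, but from -0.12 to 0.29 for Mmp12 and from -0.29 to 0.18 for Mmp14. Unequal effects of a size seen for Mmp8 were thus within the interval for Mmp3 and Mmp13 and not for Mmp12 or Mmp14. These widths also carry the spread of the libraries labelled TLR4-/-. In a fit to the 12 WT libraries alone Mmp13 was called as well (-0.41, edgeR adjusted p = 0.090).

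Among the large responders, Mmp3 was lower with both treatments than with rmCIRP alone. It was counted at 20249, 17894 and 21940 with both, below every library with rmCIRP, which is a log2 fold change of -0.74 (SE 0.23, edgeR adjusted p = 0.030). The call was lost without the third rmCIRP library (-0.60, edgeR adjusted p = 0.15) and without the second library with both (-0.67, edgeR adjusted p = 0.12). Mmp10 was counted at 37463, 36583 and 38114, and Mmp13 at 31417, 30489.8 and 32073. Every one of these libraries also lay below every library with rmCIRP alone, but the log2 fold changes of -0.34 (SE 0.26, edgeR adjusted p = 0.45) and -0.43 (SE 0.22, edgeR adjusted p = 0.21) were not called. In a fit to these 6 libraries alone both were called lower (edgeR adjusted p = 4.5e-05 and 6.1e-06). Against PBS all 3 remained far higher, with log2 fold changes of 1.64 (SE 0.23) for Mmp3, 2.61 (SE 0.28) for Mmp10 and 2.70 (SE 0.23) for Mmp13. Against rmTGF-β1 the corresponding values were 1.99 (SE 0.24), 2.78 (SE 0.28) and 2.72 (SE 0.23).

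Mmp12 was counted at 5576, 5259 and 5172 with both, a log2 fold change of 0.35 (SE 0.07, edgeR adjusted p = 0.00029) against PBS and 0.43 (SE 0.07, edgeR adjusted p = 4.5e-05) against rmTGF-β1. These libraries lay within the range of those with rmCIRP alone. Mmp14, at 31305, 34305 and 33469.5, lay between its levels with PBS and with rmCIRP. It was called lower than with PBS (-0.21, SE 0.08, edgeR adjusted p = 0.033) and lower than with rmTGF-β1 (-0.47, SE 0.08, edgeR adjusted p = 7.2e-05), and higher than with rmCIRP (0.21, SE 0.08, edgeR adjusted p = 0.090). The last call was lost without the second or the third rmCIRP library (edgeR adjusted p = 0.13 and 0.24) or the second or the third library with both (0.26 and 0.20), and the first without the first library with both (-0.16, edgeR adjusted p = 0.17).

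Mmp19 reached its lowest level with both treatments, at 859.5, 875 and 926. It was lower than with PBS (log2 fold change -0.62, SE 0.11, edgeR adjusted p = 5.2e-05) and than with rmTGF-β1 (-0.38, SE 0.11, edgeR adjusted p = 0.0082), and every library also lay below those with rmCIRP alone (-0.25, SE 0.11, edgeR adjusted p = 0.13). Both Gm47093 and Tmem198b overlap Mmp19 on the other strand in the annotation. Gm47093 had condition means from 1.34 to 3.64 normalized counts. In WT cells Tmem198b was highest with PBS at 733 ± 42.2, followed by rmTGF-β1 at 646 ± 18.4, rmCIRP at 559 ± 29.6 and the combination at 492 ± 27.6 (SD, n = 3), and the means of Mmp19 stood in the same order of treatments. Without the strand option of the counting, reads of Mmp19 and Tmem198b cannot be told apart where they overlap, so the values of Mmp19 are uncertain. Mmp23, at 1137, 1033 and 1089, had log2 fold changes of -0.25 (SE 0.06) against PBS and -0.28 (SE 0.06) against rmTGF-β1. Mmp2 was not called against PBS (-0.07, SE 0.08, edgeR adjusted p = 0.47), and its call against rmTGF-β1 (-0.18, SE 0.08, edgeR adjusted p = 0.079) was lost without the first rmTGF-β1 library (-0.11, edgeR adjusted p = 0.33) or the first or second library with both (-0.16 and -0.17, edgeR adjusted p = 0.18 and 0.17).

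**Figure D2:**
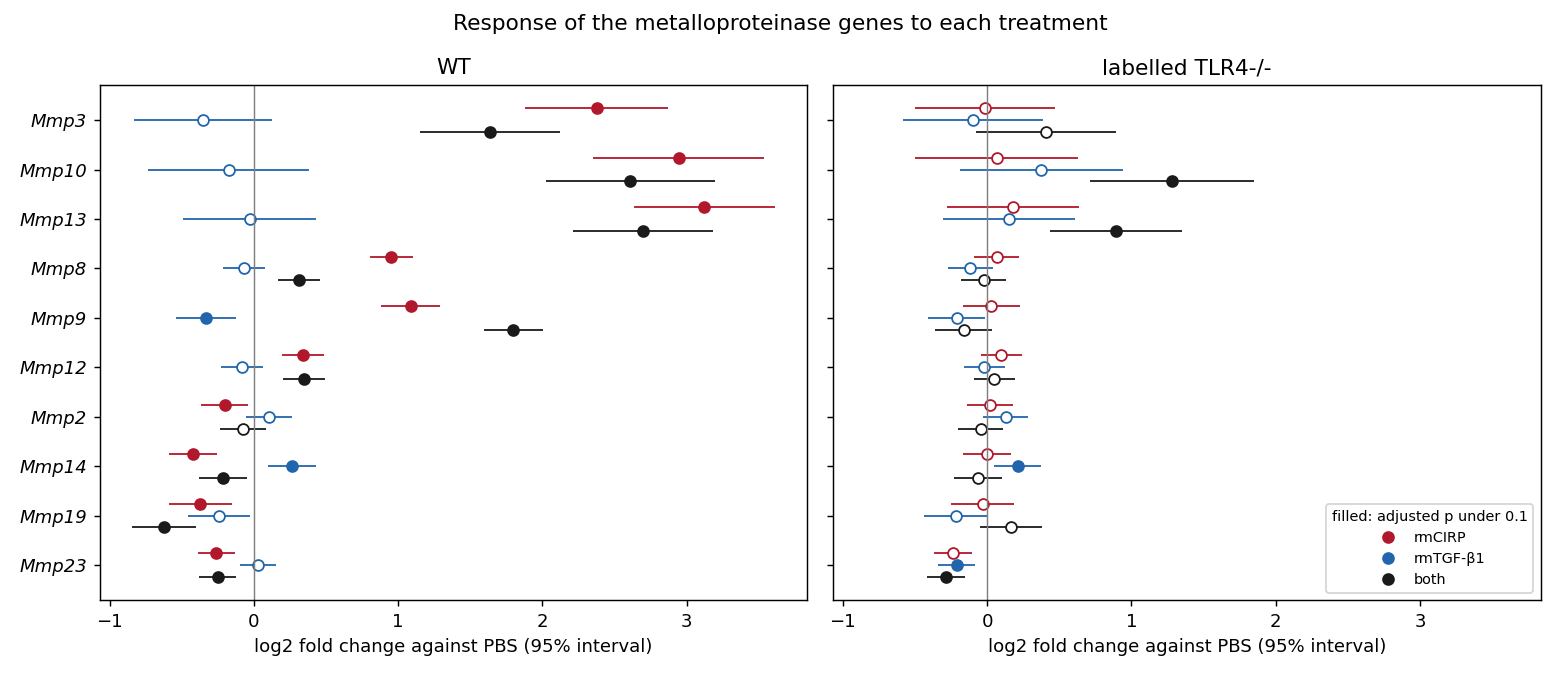
Log2 fold change against PBS with its 95% interval for each metalloproteinase gene and treatment, in WT cells (left) and in libraries labelled TLR4-/- (right), on one shared axis; filled points were called at an adjusted p under 0.1 in edgeR. In WT cells the points for rmCIRP and for both lie to the right for 6 genes, and with rmCIRP alone no gene was called in the libraries labelled TLR4-/-.

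**Figure D3:**
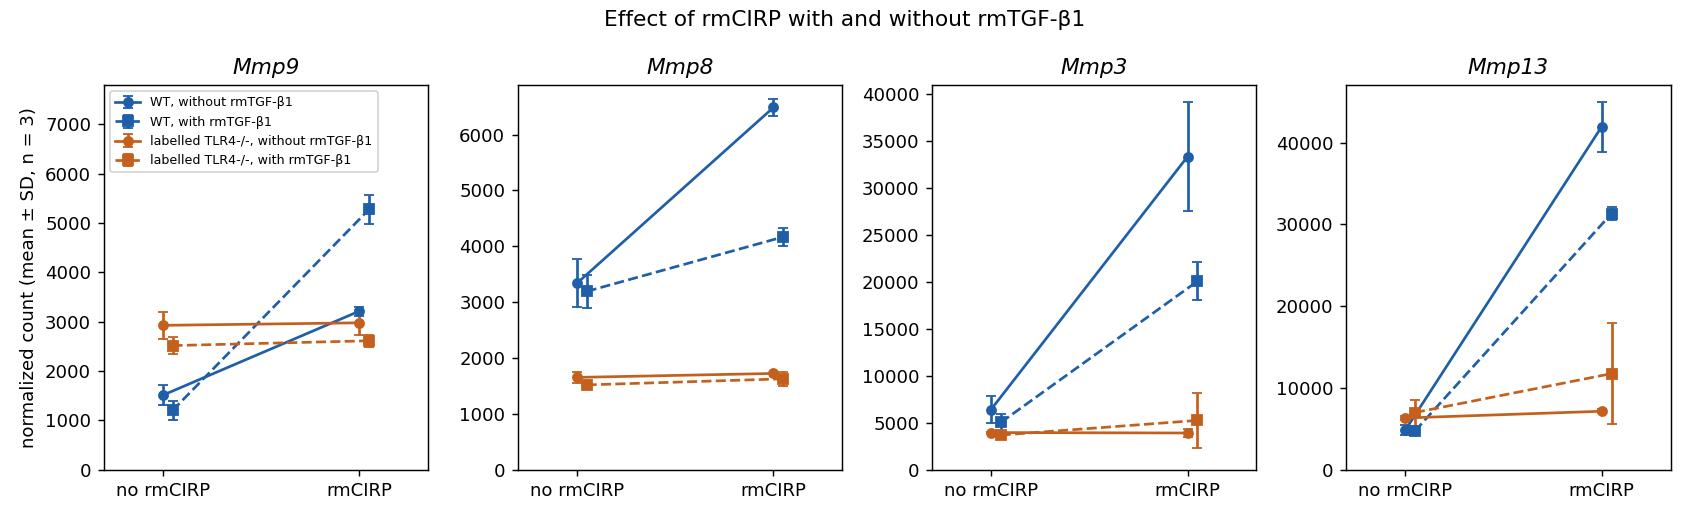
Normalized count (mean ± SD, n = 3, axes from 0) of Mmp9, Mmp8, Mmp3 and Mmp13 without and with rmCIRP; solid lines join conditions without rmTGF-β1 and dashed lines those with it. In WT cells the dashed line of Mmp9 is steeper than the solid one, from 1199.95 to 5277 against 1508 to 3213, and that of Mmp8 is flatter, from 3192 to 4168 against 3336 to 6486.

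Scaled by exon length, the order of the genes changed with rmCIRP. The length counts each annotated exon base of a gene once, over all its transcripts. It was 7237 bases for Mmp12, 5960 for Mmp14 and 1722 for Mmp10. Which transcripts the cells made was not tested, so the order between genes depends on these lengths. With PBS in WT cells Mmp14 was highest, at 6382 ± 135 (SD, n = 3) normalized counts per kilobase. Mmp3 and Mmp10 followed at 3548 ± 776 and 3539.6 ± 381 (SD, n = 3), and their libraries overlapped. Mmp13 was at 1797 ± 226 and Mmp8 at 1376 ± 176 (SD, n = 3), and the other 5 lay between 384 and 618. With rmCIRP Mmp10 came first at 27364 ± 1963 (SD, n = 3) counts per kilobase, Mmp3 and Mmp13 next at 18486 ± 3212 and 15698 ± 1146 (SD, n = 3) with overlapping libraries, and Mmp14 came after them at 4793 ± 244 (SD, n = 3). With both treatments Mmp10 led at 21711 ± 446 (SD, n = 3), and Mmp9 at 1491 ± 82.0 came close to Mmp8 at 1719 ± 65.1 (SD, n = 3) without overlap. In the libraries labelled TLR4-/- with PBS, Mmp14 was again first at 6001 ± 189 (SD, n = 3), and Mmp12, at 1122 ± 57.3 (SD, n = 3) counts per kilobase, stood above Mmp9, Mmp2 and Mmp8.

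Other genes of the family, inhibitors and activators were read from lists. Of 13 further metalloproteinase genes, 9 were tested and 4, Mmp7, Mmp20, Mmp21 and Mmp24, had too few reads. With rmCIRP in WT cells 3 of the 9 were called higher and 5 lower, with a median log2 fold change of -0.41, where 43.9% of all genes were called. Those called higher included Mmp1b (2.33, SE 0.29, edgeR adjusted p = 1.5e-06), an interstitial collagenase gene of the same cluster that rose from 17.7 ± 6.21 to 89.6 ± 10.9 normalized counts (SD, n = 3). Whether its reads are shared with the related Mmp1a was not tested, so both are uncertain. Mmp11, stromelysin 3, fell by 0.71 on the log2 scale (SE 0.07, edgeR adjusted p = 6.5e-08) and Mmp17, a membrane-anchored member, by 0.72 (SE 0.11, edgeR adjusted p = 1.6e-05). With both treatments 2 of the 9 were called higher and 5 lower against PBS, where 53.4% of all genes were called. With rmTGF-β1 alone only Mmp11 was called, lower, where 12.4% of all genes were called.

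Of 6 inhibitor genes, 5 were tested. The tissue inhibitor Timp1 rose with rmCIRP in WT cells, from 77868 ± 5443 to 118547 ± 4626 normalized counts (SD, n = 3), a log2 fold change of 0.60 (SE 0.07, edgeR adjusted p = 1.2e-06). Timp3, the matrix-bound inhibitor, fell from 52573 ± 3098 to 36187 ± 1089 (SD, n = 3; -0.54, SE 0.07, edgeR adjusted p = 2.9e-06). With rmTGF-β1 alone Timp3 rose instead (0.58, SE 0.07, edgeR adjusted p = 1.7e-05), and with both it was above PBS (0.38, SE 0.07, edgeR adjusted p = 0.00014) and above rmCIRP alone (0.93, SE 0.07, edgeR adjusted p = 1.2e-08). Timp2 fell by 0.12 with rmCIRP (SE 0.04, edgeR adjusted p = 0.011), and Reck and A2m were not called. Over the list, rmCIRP gave 1 higher and 2 lower, rmTGF-β1 gave 1 higher and 0 lower, and both gave 2 higher and 2 lower. The share of all genes called in these 3 comparisons was 43.9%, 12.4% and 53.4%.

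Of 9 genes for activators of the proenzymes, 8 were tested, and 2 were called higher and 2 lower with rmCIRP in WT cells. Plau, the urokinase that makes plasmin, rose from 10803 ± 15.1 to 20709 ± 855 normalized counts (SD, n = 3), a log2 fold change of 0.93 (SE 0.12, edgeR adjusted p = 2.8e-06). With rmTGF-β1 it fell by 0.54 (SE 0.12, edgeR adjusted p = 0.0077), and with both it was above PBS by 0.46 (SE 0.12, edgeR adjusted p = 0.0035). The convertase gene Pcsk5 was called higher with rmTGF-β1 (0.80, SE 0.10, edgeR adjusted p = 1.2e-05) and with both (1.32, SE 0.10, edgeR adjusted p = 2.2e-10), and Furin likewise (0.24 and 0.25, SE 0.05 each). In all, rmTGF-β1 gave 3 higher and 1 lower of the 8, and both treatments gave 5 higher and 2 lower. With rmCIRP the 4 of 8 activators called stand beside 43.9% of all genes. The share of all genes called was 12.4% with rmTGF-β1 and 53.4% with both.

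In the libraries labelled TLR4-/-, rmCIRP alone changed none of the 10 genes in edgeR's test, where 0% of all genes tested were called. DESeq2 called none of the 10 either, while over all genes it called 7 higher and 26 lower of 14344. In edgeR Mmp23 alone had an unadjusted p under 0.05. Mmp3 was counted at 3989, 3998 and 3853 with PBS and at 3633, 3687 and 4378 with rmCIRP, which is a log2 fold change of -0.01 with a 95% interval from -0.50 to 0.47. Mmp10 was at 4335, 4135 and 3986 with PBS and at 4292, 4155 and 4549 with rmCIRP (log2 fold change 0.07, interval -0.50 to 0.63). The treated libraries of both genes overlapped those with PBS. Mmp13 was at 6044, 6593 and 6326 with PBS and at 6851, 7227 and 7358 with rmCIRP, which did not overlap, with a log2 fold change of 0.18 (interval -0.27 to 0.64). Mmp8 (0.07, interval -0.09 to 0.22) and Mmp9 (0.03, interval -0.16 to 0.23) were near 0. Mmp23 was at 1124, 1033 and 1058 with PBS and at 907, 863 and 951 with rmCIRP, which is a log2 fold change of -0.24 (SE 0.06, edgeR adjusted p = 0.34), of about the size seen in WT cells.

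With rmTGF-β1 in these libraries, Mmp14 was called higher (0.21, SE 0.08, edgeR adjusted p = 0.073) and Mmp23 lower (-0.21, SE 0.06, edgeR adjusted p = 0.022), where 12.1% of all genes tested were called higher and 11.7% lower. Mmp14 was counted at 42923, 42641 and 38114, each above the 3 PBS libraries at 35794, 36879 and 34625. Its call was lost without any one of 5 of the 6 libraries, with log2 fold changes from 0.18 to 0.23 and adjusted p from 0.11 to 0.21 in edgeR, and held without the third rmTGF-β1 library (0.27, edgeR adjusted p = 0.051), where 2 members were called higher. The call on Mmp23 was lost without the first PBS library (-0.18, edgeR adjusted p = 0.10). In the third rmTGF-β1 library Mmp10 was at 7772, against 4084 and 4239 in the other two, and Mmp13 at 8810.4, against 5877 and 6279. With all 3 libraries the log2 fold change of Mmp10 was 0.38 (SE 0.27, edgeR adjusted p = 0.38), and without the third it was 0.01.

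With both treatments in the libraries labelled TLR4-/-, Mmp10 and Mmp13 were called higher and Mmp23 lower against PBS, where 30.5% of all genes tested were called, 16% higher and 14.5% lower. The replicates were far apart. Mmp10 was counted at 4801, 8647 and 16813, and Mmp13 at 6201, 10581 and 18473. The third library, which stood apart over all genes, was the highest for both, and the first lay near the PBS level. The log2 fold changes were 1.28 (SE 0.27, edgeR adjusted p = 0.0018) for Mmp10 and 0.89 (SE 0.22, edgeR adjusted p = 0.0056) for Mmp13. Without the third library they were 0.70 (edgeR adjusted p = 0.019) and 0.41 (edgeR adjusted p = 0.072). Without the first or the second library, Mmp3 (0.65 and 0.59) and Mmp19 (0.27 and 0.26) were called higher as well. When the model was fitted to these 6 libraries only, Mmp13 was no longer called (0.90, edgeR adjusted p = 0.13).

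The same library stood out in other members. Mmp3 was at 8560.2 in it and at 3317 and 3836 in its replicates, and the log2 fold change against PBS was 0.41 (SE 0.23, edgeR adjusted p = 0.22) with it and -0.14 without it. Mmp19 was at 1685 in it and at 1119 and 1123 in the others (0.17 with it, -0.05 without it). Mmp14 was lowest in it, at 27575 against 38892 and 36355 (-0.06 with it, 0.08 without it). For Mmp23 the libraries were close, at 957, 828 and 860.1, and the log2 fold change was -0.28 (SE 0.06, edgeR adjusted p = 0.0026) with it and -0.26 without it. Mmp9 was at 2482, 2723 and 2635, a log2 fold change of -0.16 (SE 0.09, edgeR adjusted p = 0.24). The summed macrophage markers in the 3 libraries were 389654, 356062 and 444556 and the summed fibroblast markers 494847, 452995 and 392079. In the third library the summed neutrophil markers were 405.9, against 136 and 158, and the summed endothelial markers 1202, against 712 and 625. The part of these in the results was not tested.

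For the interaction of the treatments in these libraries, 0 of the 10 genes were called by edgeR and 0 by DESeq2, while 3 had an unadjusted p under 0.05 in edgeR, where 1.91% of all genes tested were called, 1.06% higher and 0.849% lower. Over all genes DESeq2 called 386 higher and 211 lower of 13057. The values were 0.84 (SE 0.38) for Mmp10, 0.56 (SE 0.31) for Mmp13, 0.41 (SE 0.15) for Mmp19 and -0.27 (SE 0.11) for Mmp14. Without the third library with both they were 0.26, 0.08, 0.19 and -0.14. Leaving out other libraries moved the count as well: Mmp10 (1.21, edgeR adjusted p = 0.069) and Mmp19 (0.49, edgeR adjusted p = 0.081) were called without the third rmTGF-β1 library, Mmp10 (1.17), Mmp13 (0.87) and Mmp19 (0.51) were called higher and Mmp14 (-0.37) lower without the first library with both, and Mmp19 (0.51) without the second.

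**Figure D4:**
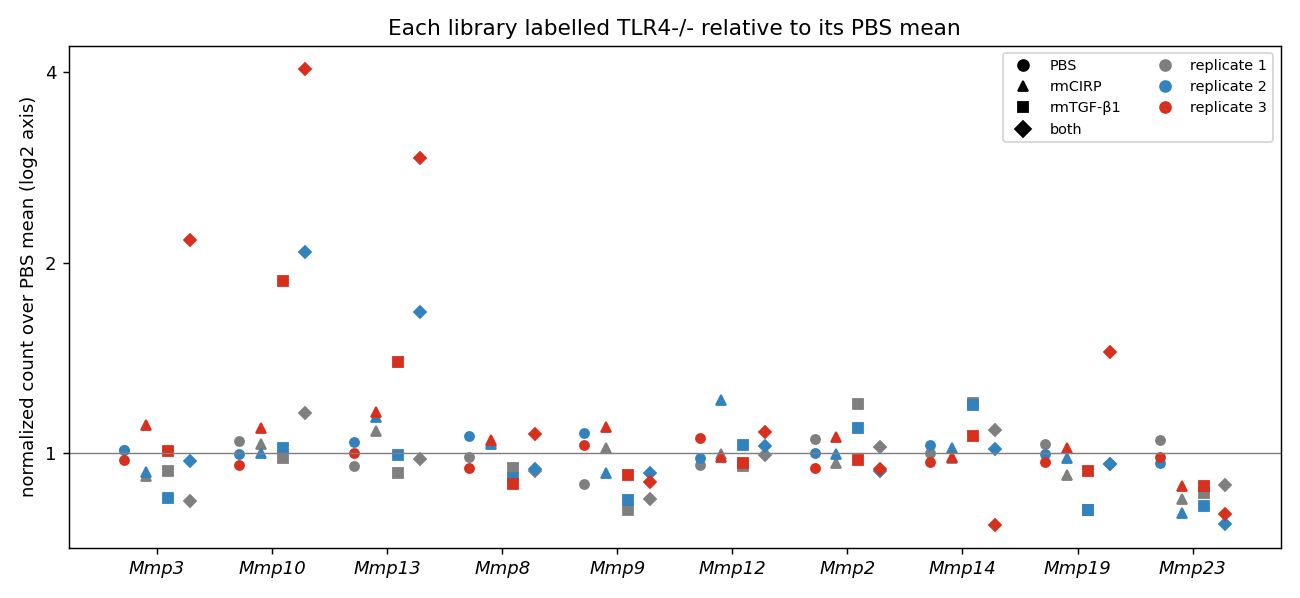
Normalized count of each library labelled TLR4-/- divided by the mean of the 3 PBS libraries with that label (log2 axis); symbols give the treatment and colours the replicate number. The third library with both treatments (red diamonds) is highest for Mmp3, Mmp10, Mmp13 and Mmp19 and lowest for Mmp14, while the rmCIRP libraries (triangles) lie between 0.805 and 0.887 for Mmp23 and between 0.920 and 1.21 for the other 9 genes.

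The genotypes already differed with PBS. In the libraries labelled TLR4-/- 3 members were called higher, Mmp12, Mmp9 and Mmp2, and 4 lower, Mmp8, Mmp3, Mmp23 and Mmp19, where 47.1% of all genes tested were called, 23.2% higher and 24% lower. The median log2 difference was -0.16 over the members and -0.02 over all genes. Mmp12 was counted at 7786, 7994 and 8585 in libraries labelled TLR4-/- and at 4075, 4164 and 4263 in WT (log2 difference 0.96, SE 0.07, edgeR adjusted p = 1.1e-10). Mmp9 was counted at 2617, 3148 and 3012, against 1295, 1692 and 1537 in WT (0.95, SE 0.10, edgeR adjusted p = 3.8e-08). Of the 15 macrophage markers, 14 were called higher and 1, Marco, lower in the same comparison, with a median log2 difference of 1.97, and Csf1r, the receptor that defines the lineage, differed by 2.20 (SE 0.07). Of the 9 fibroblast markers, 1 was called higher and 4 lower, with a median log2 difference of -0.22. Thy1 was at 17842 ± 675 in WT and at 8025 ± 277 in the libraries labelled TLR4-/- (SD, n = 3). The part of the macrophage and fibroblast markers in the genotype differences, such as the higher Mmp12 and Mmp9, was not tested. Each genotype's cells came from their own pool of lungs, so genotype and pool cannot be told apart.

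Mmp8 differed in the other direction. It was counted at 1629, 1758 and 1569 in the libraries labelled TLR4-/- with PBS and at 2883, 3733 and 3392 in WT, a log2 difference of -1.02 (SE 0.07, edgeR adjusted p = 1e-10). Mmp3 was lower by 0.70 (SE 0.23, edgeR adjusted p = 0.020) on the log2 scale, with a difference of -0.51 (edgeR adjusted p = 0.13) without the second WT library. Mmp23 had a difference of -0.27 (SE 0.06, edgeR adjusted p = 0.0014) and Mmp2 one of 0.27 (SE 0.08, edgeR adjusted p = 0.0072). The difference in Mmp19 (-0.22, SE 0.10, edgeR adjusted p = 0.095) was lost without any one of the 6 libraries, with values from -0.25 to -0.18 and adjusted p from 0.10 to 0.28 in edgeR. Mmp10 (-0.56, SE 0.27, edgeR adjusted p = 0.11), Mmp13 (0.39, SE 0.22, edgeR adjusted p = 0.17) and Mmp14 (-0.09, SE 0.08, edgeR adjusted p = 0.39) were not called, though the libraries did not overlap. In a fit to the 6 PBS libraries alone Mmp10 and Mmp13 were called (edgeR adjusted p = 1.7e-05 and 0.00041).

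The response to rmCIRP itself differed between the genotypes for 7 members, with 6 differences negative and 1 positive, where 31.4% of all genes tested were called, 14.3% lower and 17.1% higher. The differences, as the log2 effect in libraries labelled TLR4-/- minus that in WT, were -2.94 (SE 0.32) for Mmp13, -2.88 (SE 0.39) for Mmp10 and -2.39 (SE 0.33) for Mmp3. They were -1.06 (SE 0.14) for Mmp9 and -0.89 (SE 0.10) for Mmp8, and 0.42 (SE 0.11) for Mmp14, whose fall was seen in WT cells. Each of these 6 stayed past the threshold when any of the 12 libraries was left out. That of Mmp12 (-0.24, SE 0.10, edgeR adjusted p = 0.072) was lost without the first WT PBS library (-0.25, edgeR adjusted p = 0.10), the second WT rmCIRP library (-0.21, edgeR adjusted p = 0.15), the third labelled TLR4-/- PBS library (-0.22, edgeR adjusted p = 0.13) or the first or the third such rmCIRP library (-0.22 and -0.18, edgeR adjusted p = 0.14 and 0.20). Mmp19 (0.34, SE 0.15, interval from 0.03 to 0.65) was just short of the threshold (edgeR adjusted p = 0.100039). Mmp2 (0.22, SE 0.11, interval from -0.0043 to 0.45, edgeR adjusted p = 0.15) was not called either. Mmp2 was called without the first WT PBS library (0.26) and Mmp19 without the first WT rmCIRP library (0.38). For Mmp23 the interval was from -0.16 to 0.21.

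For the response to rmTGF-β1, 0 members differed between genotypes in edgeR and 0 in DESeq2, and 1, Mmp23 (-0.24, SE 0.09), had an unadjusted p under 0.05 in edgeR, where 0.0861% of all genes tested were called, 0.0369% higher and 0.0492% lower. Over all genes DESeq2 called 72 higher and 93 lower of 12414. The interaction of the treatments differed for Mmp9, by -1.03 (SE 0.19, edgeR adjusted p = 0.093), where 0.0185% of all genes were called in each direction. In the libraries labelled TLR4-/- Mmp9 stayed between 2377 and 3224 under all 4 treatments. That call was lost without any one of 15 of the 24 libraries, with values from -1.12 to -0.90 and adjusted p from 0.034 to 0.20 over all 24. The 15 were, in WT, the second PBS, all 3 rmCIRP, the second rmTGF-β1 and all 3 libraries with both, and, in those labelled TLR4-/-, all 3 PBS, the first and second rmCIRP, the first rmTGF-β1 and the second with both. For Mmp8 the difference was 0.60 (SE 0.15, edgeR adjusted p = 0.14), past the threshold in DESeq2, and without the first labelled TLR4-/- library with both, Mmp8 (0.63) and Mmp13 (1.26) were called higher in edgeR.

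Across the 8 condition means on the log2 scale, the pattern of Mmp10 was most like those of Mmp3 (Pearson r = 0.971) and Mmp13 (0.958) within the family, and Mmp8 was nearest to Mmp3 (0.901). These are descriptions over 8 means, which share their libraries between genes. Outside the family, the genes most like them were Map2k6 and Clic4 for Mmp3 (0.997 and 0.996), Slc7a2 and Nfkb1 for Mmp10 (0.996 each), Il1a and Tnfaip3 for Mmp13 (0.992 and 0.991) and Clip1 and Mpzl1 for Mmp8 (0.992 and 0.991). Mmp9 was matched less closely, by Osbpl3 (0.965) and Cd38 (0.960), and its nearest family member was Mmp13 (0.744). For Mmp12 the nearest were Tlr7 and St18 (0.998 each), and its nearest family member, Mmp2, was at 0.715.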

How the data were processed

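Total RNA (TruSeq Stranded Total RNA kit, NextSeq 550) from mouse pulmonary fibroblasts was sequenced in 24 libraries, 3 for each of 8 conditions. The authors checked reads with FastQC, used STAR2 and mouse GENCODE for alignment, and deposited unnormalized ht-seq counts per gene symbol. The submitters' notes name the build NCBIM37, the count files hold no positions, and the annotation release and strand option are not given in the sources used here. The 5 tally lines for reads outside genes (14.5% to 16.1% of each library) were left out.

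Counts were tested in R 4.3.3 with edgeR 4.0.16: filterByExpr, TMM, glmQLFit with 8 condition means on all 24 libraries, and glmQLFTest for 14 comparisons, with Benjamini-Hochberg adjustment over 16258 genes and a threshold of 0.1, that of the study. The common biological coefficient of variation was 0.0571. Each SE is the size of the log2 change over the root of its F statistic. Intervals are 95%. Normalized counts, for levels only, are counts divided by DESeq2 1.42.0 size factors. Levels per kilobase use the combined exon length of all transcripts of a gene in GENCODE M21. Libraries were grouped by their labels and none was left out. Scripts were tested on simulated data. The members and gene lists were chosen with earlier results of these data known, so list counts are descriptions.

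Named genes are the 10 members in every comparison. From lists of other metalloproteinases, inhibitors and activators, up to 3 called genes each way could be named if their mean normalized count reached 50. Likeness is the Pearson correlation of log2 CPM (library-scaled counts, prior count 2) over 8 condition means, naming the 2 nearest genes for members that span at least 1 on that scale. Alternatives were DESeq2, RLE scaling, no filter, a filter at a mean count of 10, a replicate block, a fit to the libraries compared, a threshold of 0.05 and leaving out each library. RefSeq promoter windows were matched by symbol, for 7 of 10 members.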

Additional observations from a re-analysis of the deposited data

Results flagged for a closer look

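The effect of rmCIRP differed between WT cells and the libraries labelled TLR4-/- for 7 metalloproteinase genes by the test of the difference itself, where 31.4% of all genes tested were called. As log2 effects in the labelled libraries minus those in WT, the differences were -2.94 for Mmp13, -2.88 for Mmp10, -2.39 for Mmp3, -1.06 for Mmp9, -0.89 for Mmp8, -0.24 for Mmp12 and 0.42 for Mmp14. Of these, Mmp12 had an adjusted p of 0.072 in edgeR's quasi-likelihood test, and the other 6 had at most 0.0090. The call on Mmp12 was lost without any one of 5 of the 12 libraries. The interaction of rmCIRP with rmTGF-β1 differed between the genotypes for Mmp9, by -1.03 (adjusted p = 0.093, edgeR). Genotype cannot be told apart from the pool of lungs that each genotype's cells came from.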

How the results depend on the processing

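The 98 log2 fold changes given for members were recomputed under 7 alternatives beside leaving out each library, and outside the latter none changed direction. The call held in all 98 under RLE scaling, 96 under DESeq2, a filter at a mean count of 10 and a replicate block, 92 at a threshold of 0.05, 85 in a fit to the libraries compared and 70 without a filter on low counts. The cause of the last 2 was not tested.

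Without a filter, of 34285 genes, 107 were called higher and 91 lower for the WT interaction, against 6 and 2 of 16258 with it. For rmCIRP in the libraries labelled TLR4-/- they were 37 and 112, against 0 and 0. Between genotypes they were 216 and 347 for rmTGF-β1, against 6 and 8, and 506 and 288 for the interaction, against 3 and 3. For both against rmCIRP they were 1594 and 1542, against 1629 and 1700. Counts of members called moved by over 1.5 times as follows. Without a filter they were 4 lower for rmTGF-β1 in WT, 5 lower for both against rmCIRP, 3 lower for the WT interaction, 1 higher and 1 lower for rmCIRP in the libraries labelled TLR4-/-, 3 higher and 3 lower there for rmTGF-β1, 2 lower for both, 4 higher and 1 lower for the interaction, and, between genotypes, 3 higher for rmCIRP, 2 higher and 1 lower for rmTGF-β1 and 5 higher for the interaction. In fits to the libraries compared they were 2 lower for rmTGF-β1 in WT, 5 lower for both against rmCIRP, 2 lower for the WT interaction, and, in the libraries labelled TLR4-/-, 3 lower for rmTGF-β1 and 1 higher for both, with 3 higher for the genotype difference in rmCIRP. At a threshold of 0.05 they were 1 higher for both against rmCIRP, 0 higher for rmTGF-β1 in the libraries labelled TLR4-/- and 0 lower for the genotype difference in the interaction, for which DESeq2 gave 1 higher. Over all genes, DESeq2 called 101 higher and 46 lower of 11771 for that difference. In fits to the libraries compared, 71 were called higher and 54 lower of 15646 for the WT interaction. For both against PBS in the libraries labelled TLR4-/- they were 1172 and 948 of 15145, against 2603 and 2357 of 16258 in the main fit. Counts over all genes are not given here at 0.05 or with a library left out.

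The deviations of same-numbered libraries had a mean correlation of 0.012 over 84 pairs, from -0.117 to 0.369. For libraries of different number the mean was -0.006 over 168 pairs, from -0.367 to 0.224. These means over all genes do not settle whether the numbers pair some of the libraries, and the labels do not say. Among the members, the block gave 2 called higher for the genotype difference in rmCIRP, Mmp19 (0.34) joining Mmp14. Mmp10 was called lower between genotypes with PBS (-0.56), and no other call on a member changed.

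With each library left out in turn, the counts ranged as follows: for rmTGF-β1 in WT from 0 to 1 higher and from 0 to 1 lower, for both against rmCIRP from 1 to 2 in each direction, and for the WT interaction from 0 to 1 lower. In the libraries labelled TLR4-/- they were from 0 to 2 higher for rmTGF-β1, from 2 to 4 higher for both against PBS, and from 0 to 3 higher and 0 to 1 lower for the interaction. Between genotypes they were from 2 to 3 lower with PBS, from 1 to 2 higher for rmCIRP, and from 0 to 2 higher and 0 to 1 lower for the interaction. Values that changed sign were not called in the full data: Mmp2 for both against PBS in WT (from -0.11 to 0.033), and, in the libraries labelled TLR4-/-, Mmp3 (from -0.10 to 0.031) and Mmp9 (from -0.046 to 0.085) for rmCIRP, and Mmp3 (from -0.14 to 0.65), Mmp14 (from -0.16 to 0.076) and Mmp19 (from -0.053 to 0.27) for both against PBS. A change of the size of the SE is not detectable with 3 libraries a condition and the spread taken over all 8 conditions. The SE was from 0.22 to 0.54 for Mmp3, Mmp10 and Mmp13 and from 0.061 to 0.21 for the other members over all comparisons.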
